A study of Homo sapiens with 10 samples.

Results

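Rb binding was examined at the promoters of 10 genes whose products build the centromere and the kinetochore: CENPA, HJURP, CENPK, CENPM, CENPU, NDC80, NUF2, SPC25, CENPE and CENPF. They are 10 of 19970 protein-coding genes on chromosomes 1 to 22 and X. They were taken as a named list, with earlier results of these data known. A peak was assigned to a gene when it overlapped, by at least 1 bp, the stretch from 2000 bp upstream to 500 bp downstream of any of its annotated transcript starts (GENCODE release 44, GRCh38). By this rule the members held 75 of the 87112 peaks of the 8 Rb libraries and none of the peaks of the 2 IgG2a control libraries.

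The data come from CUT&RUN, in which a nuclease directed by an antibody cuts out the chromatin it has bound, and the freed DNA is sequenced. Both cell lines, OVCAR-3 and Kuramochi, derive from human high-grade serous ovarian carcinoma and are labelled WT for genotype. They were exposed for 2 days to INX-315, an inhibitor of the kinase CDK2, at 300 nM, or to an equal volume of its solvent DMSO, and each line contributed 2 Rb libraries per treatment (4 groups) and 1 IgG2a library from DMSO-treated cells. The study's methods call the 2 libraries of a group biological replicates from a single experiment. Peak lists carry no expression values, so the identity of the lines was not checked here.

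The kinetochore is the protein assembly that joins a chromosome to the microtubules of the mitotic spindle. It forms on centromeric chromatin marked by the histone H3 variant CENP-A, on which a constitutive inner layer of CENP proteins sits throughout the cell cycle and to which an outer layer with the microtubule-binding NDC80 complex is added for mitosis. Many of these genes are transcribed mainly in G2 and mitosis. Rb and its relatives p107 and p130 are known to repress cell cycle genes, Rb through E2F factors and p107 and p130 within the DREAM complex, which also contacts the cell cycle genes homology region (CHR), and cyclin-dependent kinases release this repression by phosphorylation.

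Sequencing depth could be recovered from the lists as mean coverage in fragments per base, and it lay between 0.216 and 0.501 in the Rb libraries. The lists differed in length by treatment. DMSO libraries had 5221 to 8794 peaks and INX-315 libraries 13031 to 17281, while the IgG2a lists held 257 and 195. A peak on mean background had to stand at least 9.51 to 13.9 times above the mean coverage of its Rb library to be called. A missing peak thus does not tell a height that was not detectable at this depth from no Rb.

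The start regions of 6 members are printed below. They are the 5 members with a CHR match between 120 bases upstream and the first 30 transcribed bases, and CENPE, which has none. CENPF, CENPK, CENPM and CENPU also have no CHR match there and are not printed. Each sequence is reference sequence (hg38) on the strand of the gene, from 120 bases upstream of the canonical start through the first 30 transcribed bases, or from 250 bases upstream for CENPA. Capitals mark matches on either strand to an E2F string (TTTCCCGC, TTTCGCGC, TTTGCCGC or TTTGGCGC), a CHR string (TTTGAA or TTCGAA) or a CCAAT box (CCAAT).
CENPA, chr2:26785806-26786085, plus strand: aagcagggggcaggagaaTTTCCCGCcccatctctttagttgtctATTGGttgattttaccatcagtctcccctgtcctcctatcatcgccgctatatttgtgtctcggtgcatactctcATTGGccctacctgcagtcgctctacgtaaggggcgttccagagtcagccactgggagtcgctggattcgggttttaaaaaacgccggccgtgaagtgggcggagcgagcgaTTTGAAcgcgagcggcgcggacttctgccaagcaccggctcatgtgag
HJURP, chr2:233854506-233854655, minus strand: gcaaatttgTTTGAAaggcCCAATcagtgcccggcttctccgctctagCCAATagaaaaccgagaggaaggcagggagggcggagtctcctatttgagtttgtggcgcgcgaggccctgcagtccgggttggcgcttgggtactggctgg
NDC80, chr18:2571437-2571586, plus strand: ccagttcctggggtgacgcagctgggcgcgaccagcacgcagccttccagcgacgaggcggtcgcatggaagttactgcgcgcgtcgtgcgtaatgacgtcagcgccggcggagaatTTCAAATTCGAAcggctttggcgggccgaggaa
NUF2, chr1:163321834-163321983, plus strand: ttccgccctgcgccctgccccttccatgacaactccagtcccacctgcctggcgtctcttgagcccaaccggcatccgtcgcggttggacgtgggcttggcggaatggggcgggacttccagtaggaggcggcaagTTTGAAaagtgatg
SPC25, chr2:168890401-168890550, minus strand: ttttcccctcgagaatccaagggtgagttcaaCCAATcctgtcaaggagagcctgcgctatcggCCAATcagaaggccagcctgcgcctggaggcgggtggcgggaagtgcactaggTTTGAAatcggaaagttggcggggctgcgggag
CENPE, chr4:103198314-103198463, minus strand: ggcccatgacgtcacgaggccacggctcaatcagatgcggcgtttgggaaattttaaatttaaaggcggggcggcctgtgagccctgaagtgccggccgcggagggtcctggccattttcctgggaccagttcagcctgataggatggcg

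A CHR string began within 20 bases of the canonical start in 4 of these windows. It lay 18 bases upstream in CENPA, 3 bases upstream in SPC25 and NDC80, and 16 bases downstream in NUF2. In NDC80 the second form of the string followed directly, 3 bases past the start, and reads the same on both strands. In HJURP the match was farther away, 111 bases upstream, next to a CCAAT box. CENPE had no match in the printed stretch. The E2F string of CENPA stood 232 bases upstream of its start. The NDC80 window was overlapped by 4 of the 6 NDC80 peaks, the one of Kuramochi INX-315 replicate 1 by 1 bp, and by neither OVCAR-3 DMSO peak, while at the other 5 members every peak at the canonical start overlapped the window.

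Windows of this shape (120 bases upstream, 30 transcribed) were chosen after seeing the data. In them a CHR string was present in 5 of 10 members and in 5.70% of all 19970 genes. A CCAAT box was present in 5 of 10 and in 24.8%, and an E2F string in none of the 10 and in 2.24%. The main count used windows of 100 bp on either side of the median Rb summit. There a CHR string stood in 4 of 10 members, CENPF, NUF2 and SPC25 among them, and in 4.54% of 13734 genes with a peak, a CCAAT box in 6 of 10 and in 18.8%, and an E2F string in CENPA alone and in 4.25%. In RefSeq promoter entries (GRCh38, 250 bases upstream to 50 downstream), which covered 9 members and lacked CENPE, a CHR string was found in 6 of 9 and in 13.4% of 15316 genes, a CCAAT box in 6 of 9 and in 36.6%, and an E2F string in CENPA and CENPU and in 4.50%. These are matches of letters, not mapped binding sites.

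The first comparison asked where Rb was detected with and without CDK2 inhibition. All 10 members had a promoter peak in each of the 4 INX-315 libraries. Under DMSO, both OVCAR-3 libraries had a peak at 8 members, and the Kuramochi libraries at 5 and at 8. A gene was called bound in a group when both of its libraries had a peak. In OVCAR-3, 7 of 10 members were bound under DMSO, against 26.8% of all protein-coding genes, and 10 of 10 under INX-315, against 55.5%. In Kuramochi, 5 of 10 were bound under DMSO, against 24.8%, and 10 of 10 under INX-315, against 53.2%. No member bound under DMSO lacked a peak under INX-315. Among all 19970 genes, 1 in OVCAR-3 and 3 in Kuramochi were bound under DMSO without a peak in either INX-315 library. The members that lacked a peak in at least 1 DMSO library were CENPA, CENPE, CENPF, HJURP, NDC80 and NUF2, whereas CENPK, CENPM, CENPU and SPC25 had one in all 8 libraries, as did 18.8% of all genes.

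A gene was counted as gained in a line when a peak was present in both INX-315 libraries but in neither of the DMSO libraries. In OVCAR-3 this held for CENPE, the 1 member free of peaks under DMSO, and for 27.1% of all genes free of peaks under DMSO. In Kuramochi it held for CENPE and NDC80, the 2 members free of peaks, and for 23.5% of all such genes. Both calls depended on the length of the lists. When every list of a line was shortened to its 6162 (OVCAR-3) or 5221 (Kuramochi) top-ranked peaks, CENPE had no peak left in any library, and the members gained were HJURP in OVCAR-3, beside 3.67% of genes free of peaks, and NUF2 in Kuramochi, beside 2.97%. With lists of equal length, OVCAR-3 had 6 bound members under DMSO (24.8% of all genes) against 8 under INX-315 (29.0%), and Kuramochi had 5 (21.8%) against 7 (25.0%).

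**Figure D1:**
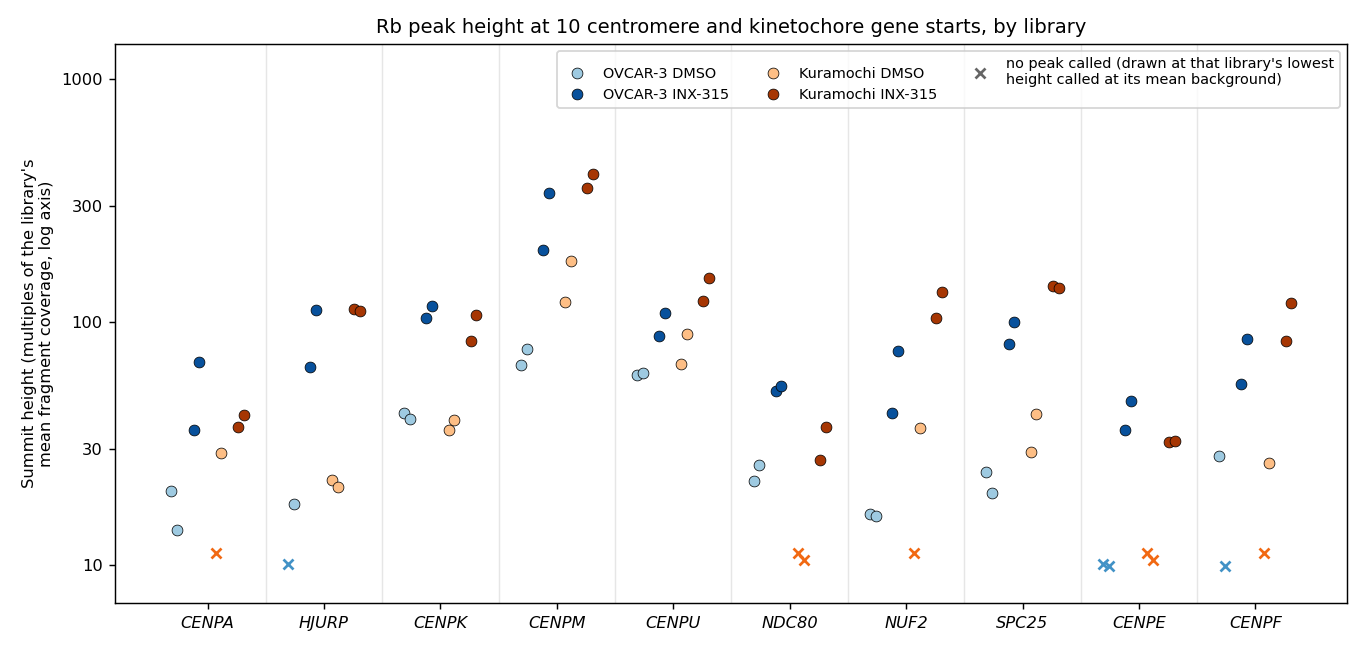
Summit height of the Rb peak at the canonical start of each member, as multiples of the mean fragment coverage of the library (log axis), with 1 point per library and 2 libraries per group. Crosses stand for libraries without a peak, drawn at the lowest height that the library's list holds on mean background. All crosses belong to DMSO libraries, and CENPM stands highest in every library.

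Summit height below is the number of fragments at the peak summit divided by the mean coverage of that library, so it is free of differences in depth but not of differences in background noise. CENPA encodes the centromeric histone variant itself. At its canonical start (chr2, plus strand, 26786056), peaks spanned 1020 bp in all, chr2:26785494-26786513. Heights in OVCAR-3 were 20.2 and 14.0 with DMSO, against 35.9 and 69.0 with INX-315. In Kuramochi, DMSO replicate 1 had no peak, DMSO replicate 2 stood at 29.0, and the INX-315 libraries at 37.0 and 41.7. In Kuramochi both INX-315 heights were above the 1 DMSO height, which rested on 11 fragments. By fold enrichment that DMSO peak (8.70) lay between the INX-315 peaks (11.4 and 8.22). In OVCAR-3, where the DMSO heights rested on 10 and 7 fragments, every INX-315 height was above every DMSO height. The ratio of geometric means there was 2.96. In OVCAR-3 that order held in 96.5% of 5300 genes, where the median ratio was 3.39. CENPA summits lay upstream of the start in 6 of 7 libraries, at a median of 152 bp, whereas the median summit of every other member lay downstream.

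HJURP is the chaperone that deposits CENP-A at centromeres. In OVCAR-3 its promoter (chr2:233853740-233855087) had no peak in DMSO replicate 1, a height of 17.9 in replicate 2, and 65.3 and 112 under INX-315. In Kuramochi the DMSO heights were 22.5 and 21.1, against 114 and 111 under INX-315. These DMSO heights rested on 10 and 8 fragments at the summit. The Kuramochi groups were separated by a ratio of 5.17, larger than in 98.0% of the 4872 genes with a height in all 4 libraries of that line, where the median ratio was 2.78. Both INX-315 heights exceeded both DMSO heights in 93.9% of those genes. The HJURP peaks also differed in extent, at 228 to 344 bp under DMSO and 786 to 1348 bp under INX-315.

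CENPK, CENPM and CENPU belong to the constitutive inner layer, CENPU to the subcomplex that recruits the mitotic kinase PLK1. Peaks at CENPK (chr5:65562736-65563583) stood at 42.4 and 39.9 in OVCAR-3 DMSO and at 104 and 117 in OVCAR-3 INX-315. In Kuramochi they stood at 35.9 and 39.5 with DMSO and at 84.0 and 107 with INX-315. The groups did not overlap in either line, and replicates differed by less than the treatments did. Both INX-315 heights also exceeded both DMSO heights in 96.5% of 5300 genes in OVCAR-3 and 93.9% of 4872 in Kuramochi.

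CENPM had the highest peak of all members in every library. Its heights were 66.7 and 77.8 in OVCAR-3 DMSO, 199 and 340 in OVCAR-3 INX-315, 121 and 179 in Kuramochi DMSO, and 358 and 408 in Kuramochi INX-315. Within the 8 lists the CENPM peak ranked at the 96.9 percentile or above by fold enrichment. That is the caller's ratio of the summit to local background, with 1 fragment added to each. The peak ran from a short way upstream of the start into the gene in all 8 lists.

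CENPU (chr4:184733025-184734631) had the second highest DMSO peaks in both lines. Among members with a height in every library of a line, it had the smallest difference between treatments in both lines. Heights were 60.6 and 61.8 in OVCAR-3 DMSO against 88.1 and 109 under INX-315, and 67.4 and 89.5 in Kuramochi DMSO against 123 and 153 under INX-315. The peaks were wide under both treatments, from 944 to 1492 bp.

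NDC80, NUF2 and SPC25 encode subunits of the NDC80 complex, the main microtubule-binding part of the outer kinetochore, in which NDC80 pairs with NUF2 and SPC25 with SPC24. NDC80 (chr18:2571019-2572323) stood at 22.2 and 25.9 in OVCAR-3 DMSO and at 52.2 and 54.7 in OVCAR-3 INX-315, a ratio of 2.23. The Kuramochi DMSO libraries had no peak, and the INX-315 libraries stood at 27.2 and 37.1. The lowest INX-315 height in Kuramochi was thus close to the DMSO heights of OVCAR-3.

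NUF2 (chr1:163321684-163322392) stood at 16.2 and 16 in OVCAR-3 DMSO and at 42.4 and 76.1 in OVCAR-3 INX-315, a ratio of 3.54. These DMSO heights rested on 8 fragments each. In Kuramochi, DMSO replicate 1 had no peak, replicate 2 stood at 36.9, and the INX-315 libraries at 104 and 134. In that line the caller's local background at NUF2 was 4.95 to 6.25 times the mean coverage, against 1.02 to 2.08 times in OVCAR-3, so a higher peak was needed there for a call.

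SPC25 (chr2:168889823-168890887) stood at 24.3 and 19.9 in OVCAR-3 DMSO and at 81.6 and 99.9 under INX-315. In Kuramochi it stood at 29.2 and 42.1 with DMSO and at 141 and 139 with INX-315. Among the 4 members with a peak in all libraries it had the lowest mean DMSO height and the largest ratio between treatments.

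CENPE, a kinesin motor of the outer kinetochore, and CENPF, a large coiled-coil protein that binds microtubules, completed the list. CENPE (chr4:103197746-103198660) had no peak in any DMSO library. Its INX-315 heights were 35.9 and 47.6 in OVCAR-3 and 32.1 and 32.4 in Kuramochi, which rested on 7 to 20 fragments at the summit. CENPF (chr1:214602923-214604062) had a peak in 1 DMSO library of each line, at 28.3 in OVCAR-3 replicate 1 and 26.3 in Kuramochi replicate 2. With INX-315 it stood at 55.5 and 85.6 in OVCAR-3 and at 84.0 and 120 in Kuramochi, all above both DMSO peaks.

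**Figure D2:**
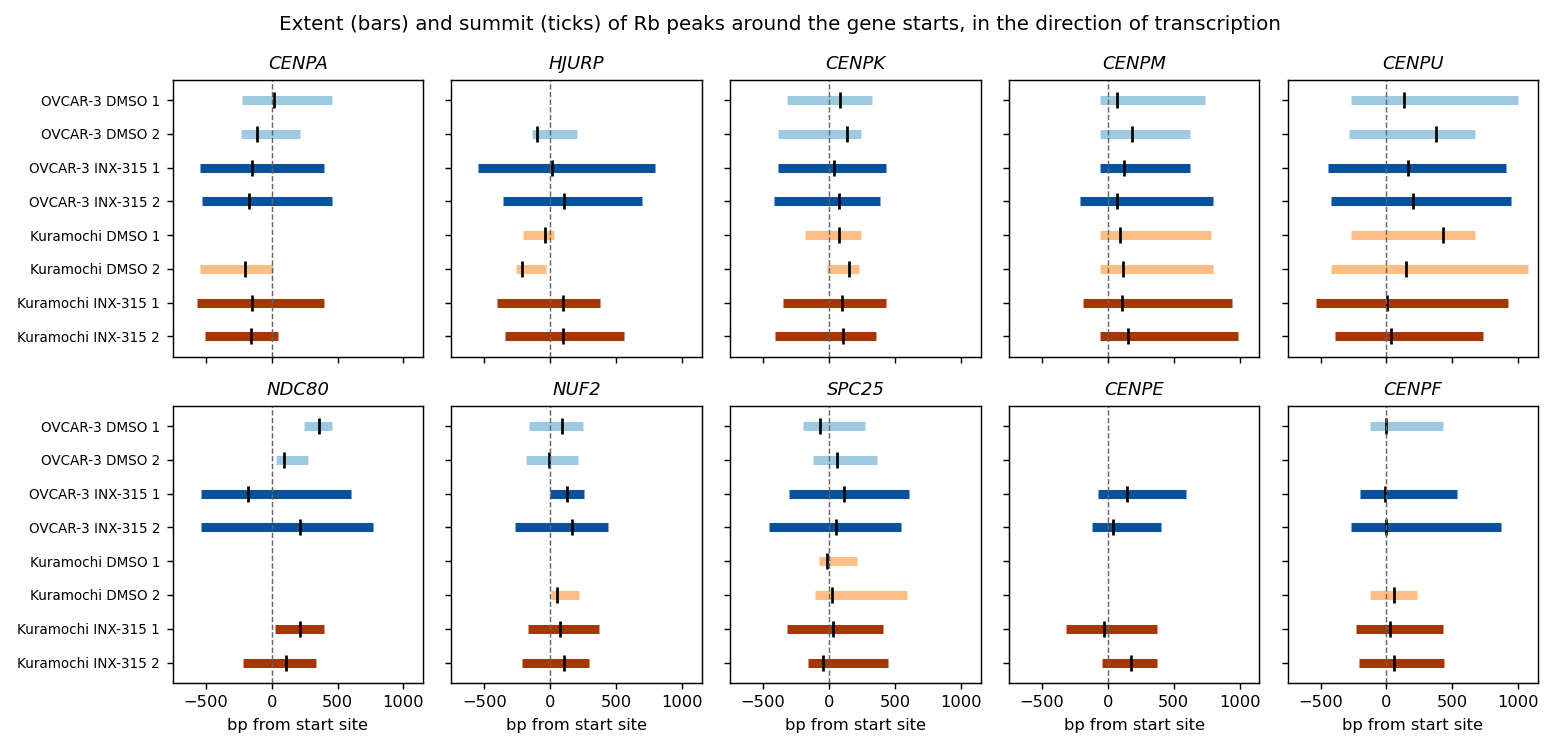
Extent (bars) and summit (ticks) of the Rb peak around the canonical start of each member, in bp along the direction of transcription, with 1 row per library in the order of line, treatment and replicate. In 66 of 69 peaks the summit lies within 250 bp of the start (dashed line), and empty rows are libraries without a peak.

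Across members the peaks lay at or near the transcription start, though not every peak covered it. Both OVCAR-3 DMSO peaks of NDC80 lay wholly downstream of the start, and the HJURP peak of Kuramochi DMSO replicate 2 wholly upstream. Of 69 peaks at the canonical starts, 66 had their summit within 250 bp of the start, and the median summit was 74 bp downstream. The 3 exceptions were DMSO peaks of CENPU and NDC80, whose summits lay 360 to 428 bp downstream. Member peaks had a median width of 485 bp under DMSO (29 peaks) and 792 bp under INX-315 (40 peaks), while the medians of whole lists were 482 to 559 bp and 619 to 775 bp.

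Some of these promoters serve a second gene. PPWD1 runs in the opposite direction from CENPK, from a start 68 bp away that 7 of 8 CENPK peaks covered. METTL4 starts 48 bp from NDC80 on the opposite strand, and 3 of 6 NDC80 peaks covered that start, all from INX-315 libraries. Also on the opposite strand, RGS5 starts 163 bp from NUF2 and the long non-coding RNA gene ENSG00000232995 60 bp from it, and 5 of 7 NUF2 peaks covered each. Rb signal at these promoters cannot be assigned to either gene of the pair.

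For a test of treatment within genes, the difference in log2 height was averaged over the lines and set against every relabelling of treatments within lines, an exact two-sided permutation test of 36 arrangements whose smallest possible p is 0.0556. It could be run on 3663 genes with a height in all 8 Rb libraries, among them CENPK, CENPM, CENPU and SPC25. No design of 2 against 2 libraries in 2 lines can reach 0.05 in this test. The 4 members each had the smallest possible p of the exact permutation test, 0.0556, and a Benjamini-Hochberg adjusted p of 0.0571 over the 3663 genes. In all 4, every INX-315 height lay above every DMSO height of its line, as it did in 97.2% of the genes tested.

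The sizes of the differences varied. The height of SPC25 was 4.04-fold higher under INX-315 (log2 difference 2.02, pooled SD between replicates 0.24, n = 2 per group), that of CENPM 3.06-fold (1.61, SD 0.35), that of CENPK 2.59-fold (1.38, SD 0.15) and that of CENPU 1.68-fold (0.75, SD 0.21). The median over all 3663 genes was 3.12-fold (1.64), and no gene had a negative difference. Relative to that median, the log2 difference was 0.37 for SPC25, -0.03 for CENPM, -0.27 for CENPK and -0.89 for CENPU. The difference of CENPU was larger than in 1.26% of genes and that of SPC25 than in 85.6%. On the scale of the deposited fold enrichment, where the median over all genes was 1.30, the differences from it were 0.32 for SPC25 and -0.68 for CENPU.

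Within OVCAR-3 the ratio of INX-315 to DMSO height was 4.1 for SPC25, 3.61 for CENPM, 3.54 for NUF2, 2.96 for CENPA, 2.68 for CENPK, 2.23 for NDC80 and 1.60 for CENPU, and the groups of these 7 members did not overlap. The median over 5300 genes of that line was 3.39, with no overlap in 96.5%. In Kuramochi the ratio was 5.17 for HJURP, 3.99 for SPC25, 2.59 for CENPM, 2.51 for CENPK and 1.77 for CENPU. SPC25 was above and CENPU below the all-gene median of its line in both lines. SPC25 had a log2 difference of 2.04 in OVCAR-3 against 2.00 in Kuramochi, and a permutation within lines of the difference between these effects gave an exact p of 0.889.

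**Figure D3:**
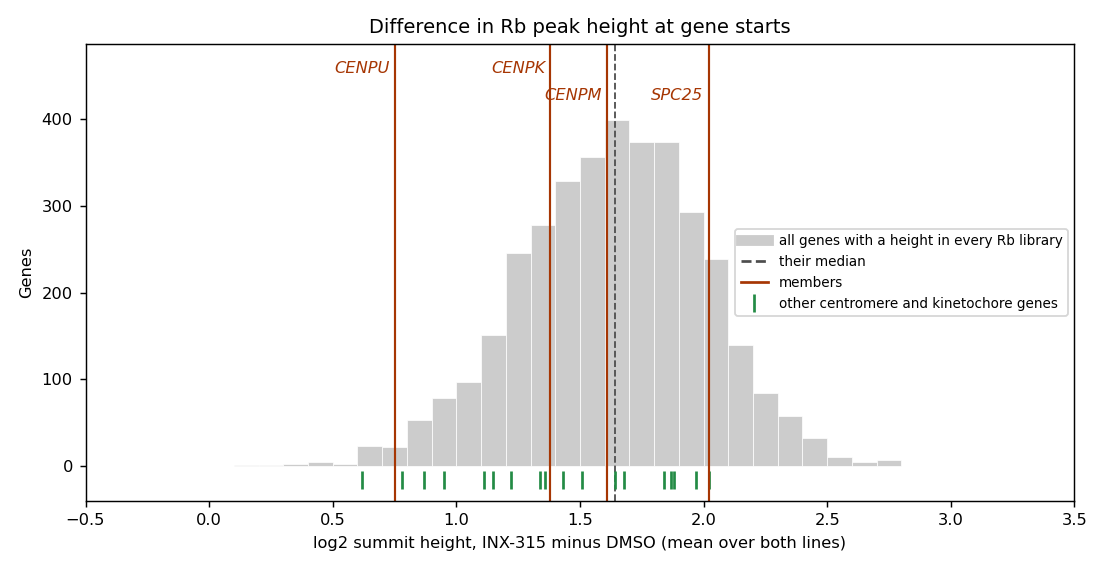
Distribution over 3663 genes of the log2 difference in summit height, INX-315 minus DMSO, averaged over both lines (bars count genes in bins of 0.1). Vertical lines mark CENPU (0.75), CENPK (1.38), CENPM (1.61) and SPC25 (2.02), the dashed line the median of all genes (1.64), and green ticks the other centromere and kinetochore genes with a height in every library.

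All 10 members could be compared by rank. The percentile of the gene's highest promoter peak by fold enrichment within its own list was used, with 0 for a library without a peak, so that it reflects order within a library but also moves with the length of the list. For CENPA in OVCAR-3 INX-315 replicate 1, the highest peak was at an upstream start (fold enrichment 9.47) rather than the canonical one (9.18). The largest difference was that of NUF2, at 50.81 points (mean 70.46 under INX-315 against 19.65 under DMSO, pooled SD between replicates 15.03). HJURP differed by 49.42 points (80.85 against 31.44), CENPE by 48.91 (48.91 against 0), CENPF by 47.45 (73.55 against 26.10), NDC80 by 36.10 (48.50 against 12.40) and SPC25 by 32.35 (84.27 against 51.92). CENPA differed by 20.38 points, less than its pooled SD of 27.58.

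The members that ranked highest under DMSO had the smallest differences in rank. Whether the upper end of the scale limited them was not tested. CENPK differed by 2.35 points (89.68 against 87.33) and CENPM by 1.18 (99.24 against 98.06), and CENPU ranked lower under INX-315 (91.13 against 94.60, difference -3.47). The median over members was 34.23 points and that over all 13734 genes with a peak in any Rb library 23.75. INX-315 percentiles lay above all DMSO percentiles of the line for 6 of 10 members (CENPE, CENPM, HJURP, NDC80, NUF2 and SPC25) and for 42.6% of genes. The exact permutation test gave each of these 6 its smallest possible p of 0.0556, with a Benjamini-Hochberg adjusted p of 0.130 over all genes, and the remaining 4 had p from 0.111 to 0.389.

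These rank differences rest partly on peaks that entered the longer INX-315 lists from below. With lists of equal length, HJURP still ranked 33.71 points higher under INX-315, CENPF 16.91, SPC25 16.84 and NUF2 14.62. The difference was 0 for CENPE, whose peaks were no longer listed, and turned to -7.67 for NDC80, -10.55 for CENPK and -21.42 for CENPA, while that of CENPU was -16.17.

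**Figure D4:**
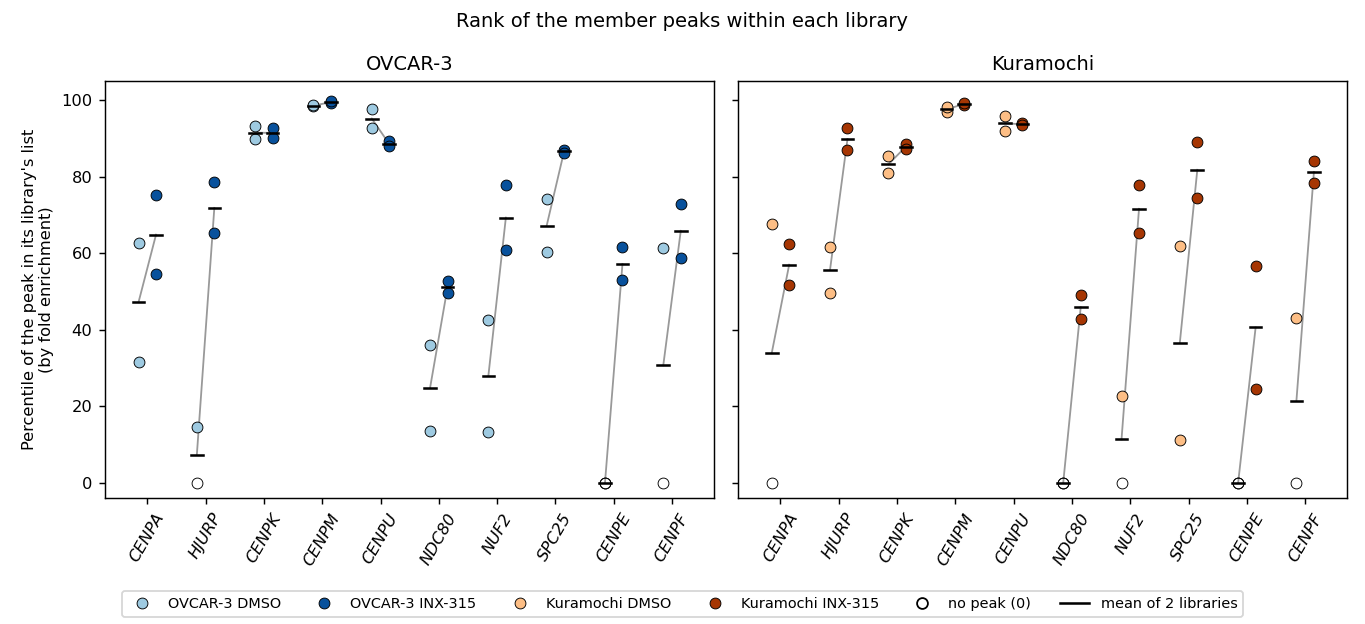
Percentile of each member's highest promoter peak within its own library's list by fold enrichment (0 to 100), for OVCAR-3 (left) and Kuramochi (right), with 1 point per library, bars for the mean of 2 libraries and open circles at 0 for libraries without a peak. CENPM, CENPU and CENPK rank above 80 in every library, whereas CENPE lies at 0 in all 4 DMSO libraries.

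The lines were compared in the same way, within treatments, for the 4 members with a height in all libraries. Heights were lower in OVCAR-3 than in Kuramochi for CENPM (log2 difference -0.79), SPC25 (-0.65) and CENPU (-0.41), with every Kuramochi height above every OVCAR-3 height of the same treatment. Such an order held in 19.9% of all 3663 genes, and the reverse order in 9.56%. Each of the 3 had an exact permutation p of 0.0556, the smallest possible, and a Benjamini-Hochberg adjusted p of 0.189. CENPK differed by 0.17 in the other direction, with overlapping groups and an exact permutation p of 0.167. The median over all genes was -0.14.

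At CENPM and SPC25 the order of the lines depended on the scale. The local background set by the peak caller was at the mean coverage of the library in OVCAR-3 for both genes, but 2.49 to 3.75 times the mean at CENPM and 3.05 to 6.20 times at SPC25 in Kuramochi. The fold-enrichment scale divides by it after 1 fragment is added to both, so values on that scale also move with depth. There the differences between lines were 0.10 for CENPM, 0.42 for SPC25 and -0.12 for CENPU. Their exact permutation p were 0.778, 0.278 and 0.611. CENPK was higher in OVCAR-3 by 0.34 on that scale, with the smallest possible exact permutation p of 0.0556. Its local background was 1.00 to 1.13 times the mean in OVCAR-3 and 1.00 times in Kuramochi. Peaks were called against 1 IgG2a library per line, from DMSO-treated cells, so the control for this background was not replicated. The part of local background in the height difference was not tested.

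A further 39 genes of the inner and outer kinetochore, the CENP-A loading machinery, the spindle checkpoint and centromeric cohesion served as context. All 39 had a peak in at least 1 Rb library, as did the 10 members, and 31.2% of all genes had none. Bound in OVCAR-3 were 22 of 39 under DMSO (26.8% of all genes) and 33 under INX-315 (55.5%), and in Kuramochi 24 (24.8%) and 34 (53.2%). Of the 12 free of peaks under DMSO in OVCAR-3, 6 were gained, against 27.1% of all such genes. Among them were ZWINT and ZW10, which act in recruiting the RZZ complex or form part of it, MIS18A, which prepares the centromere for CENP-A loading, the checkpoint kinase BUB1 and the cohesin protector SGO1. Of 9 in Kuramochi, 4 were gained, among them the outer kinetochore scaffold KNL1, the checkpoint protein BUB1B and SPDL1, an adaptor for dynein, against 23.5% of all such genes. With lists of equal length, OVCAR-3 had 2 gained genes of this list and Kuramochi 1.

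The gained peaks of this list spanned a wide range of ranks. ZWINT reached fold enrichments of 16.3 and 24.3 in INX-315-treated OVCAR-3 cells and MIS18A 17.9 and 25.2, which placed both genes near the 80 percentile of their lists or above. In Kuramochi, SPDL1 was near the lower end at 3.97 and 4.55.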

How the data were processed

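CUT&RUN libraries for Rb (8) and IgG2a (2) from OVCAR-3 and Kuramochi cells were grouped by their labels. The authors trimmed reads, aligned them to hg38 with Bowtie2 (2.3.4.1), removed blacklisted and mitochondrial reads, kept duplicates, and called peaks in each library with MACS2 (2.2.7.1), each against the IgG2a library of its line, at a q-value of 0.05. The deposited lists give a fold enrichment, −log10 p-values and −log10 q-values from the authors' peak caller. Fold enrichment is the ratio of summit to local background, with 1 fragment added to each, so it keeps some dependence on depth. No spike-in scaling is stated.

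From these, the whole number of fragments at each summit was recovered, since fold enrichment and p-value depend on that number and the background alone (relative tolerance 3e-05, 98.6% to 100% of peaks recovered). Depth was the lowest background shared by at least 1% of peaks, and height the fragments divided by it. Counts of 3 to 6 fragments were the fewest at which a peak on mean background was listed, and kept duplicates mean that fragments are not all independent molecules. Among several promoter peaks the one with the highest fold enrichment stood for the gene, while values quoted at canonical starts are those of the peak there. Genes were tested by exact permutation with Benjamini-Hochberg adjustment over all genes tested, after the scripts were tested on simulated data. Members had no test as a list. Motif strings were searched on both strands of hg38 and of RefSeq promoters. No peak passed the end of any of 23 main chromosomes of the reference.

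Named were all 10 members, genes that share a member's promoter peak, and, of the 39 other genes, those gained in a line and those with no peak in any Rb library (none), except for items not reported here. The members, the list of other genes and the tests were chosen with earlier results of these data known. Replicate numbers did not pair the samples. Alternatives were other promoter windows, canonical starts only, summits inside the window, a q-value of 0.001, lists of equal length, other measures of height and rank, leaving out each library, and a replicate block. Python 3.11.15, numpy 2.4.6, scipy 1.17.1 and pysam 0.24.0 were used.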

Additional observations from a re-analysis of the deposited data

How the results depend on the processing

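Of the recomputed values, 322 kept their direction and, for counts, stayed within 1.5 times the main value, 12 counts moved further, 1 difference went to 0 and 5 differences reversed. Among the 322 were 18 values from the replicate block, which leaves a difference in means unchanged by construction. With lists of equal length, the members gained in Kuramochi went from 2 to 1, the other genes gained from 6 to 2 in OVCAR-3 and from 4 to 1 in Kuramochi, and the other genes bound under INX-315 in Kuramochi from 34 to 22, since fewer peaks enter. The rank differences then reversed for CENPA (-21.42), CENPK (-10.55) and NDC80 (-7.67), and that of CENPE went to 0.00, its peaks being off the shortened lists. On the fold-enrichment scale the difference between lines reversed for CENPM (0.10) and SPC25 (0.42). In RefSeq promoter windows, 2 members held an E2F string instead of 1, and in the 150-base windows of the printed sequences, a choice made after seeing the data, 0 did.

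Leaving out 1 library moved members bound in Kuramochi DMSO from 5 to as many as 8 (without replicate 1) and in OVCAR-3 DMSO from 7 to 8. Members gained ranged from 1 to 2 in OVCAR-3 (2 without either DMSO replicate) and from 2 to 5 in Kuramochi (5 without DMSO replicate 2), and other genes gained from 6 to 11 in OVCAR-3 (11 without DMSO replicate 2) and from 5 to 9 in Kuramochi (9 without DMSO replicate 2). The rank difference of CENPA ranged from 3.46 to 37.3 points. The log2 height differences ranged from 0.65 to 0.85 for CENPU and from 1.88 to 2.15 for SPC25, and none changed sign.

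Same-numbered replicates did not deviate together (correlations of replicate differences -0.048 in OVCAR-3 and -0.015 in Kuramochi over 3663 genes). With a replicate block the smallest possible exact permutation p was 0.125, and CENPK, CENPM, CENPU and SPC25 each had that p. Their height differences of 1.38, 1.61, 0.75 and 2.02 are unchanged by construction, since the block alters only the p. No p here could pass 0.05, so the calls carry no information on stability. Depth limits weak peaks most. It was 0.380 to 0.501 fragments per base in the DMSO libraries and 0.216 to 0.421 in the INX-315 libraries. No height is known where CENPE, NDC80, CENPF, HJURP, NUF2 and CENPA lacked a DMSO peak. Whether depth accounts for these absences was not tested.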

Other observations

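A further Rb peak was assigned to CENPA at an upstream start. There, 1 CENPA transcript begins at chr2:26764289, among 4 annotated starts of SLC35F6, so the peak belongs to a promoter that the genes share. It was present in 6 of 8 Rb libraries, with fold enrichments of 3.56 to 9.47 and summits 21675 to 21870 bp before the canonical start, and it was absent from OVCAR-3 DMSO replicate 1 and Kuramochi DMSO replicate 1.

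The windows of 201 bp around the median summits of the members had a median GC content of 62.4% and a median of 16 CpG dinucleotides, against 69.7% and 20 over 13734 genes with a peak. NDC80 had the lowest GC content of the members, 45.8%, lower than all but 1.13% of those genes, and CENPA followed at 52.2% (3.65%). CENPE had the highest, 70.1%. No relation of composition to binding was tested.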
